A study of Bos taurus with 20 samples.

Results

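The 8 genes described here carry extracellular adenosine signalling: the 4 adenosine receptors ADORA1, ADORA2A, ADORA2B and ADORA3, the gene TMIGD3 that overlaps ADORA3, the surface enzymes ENTPD1 and NT5E, and adenosine deaminase, ADA. They were taken by gene name, with 1 ADORA3 probe and the TMIGD3 probe picked by probe identifier after their late against early difference in these arrays was known. That difference is therefore given for the members as a description, and nothing is read from their place in the fit across genes. The members were read by 18 of the 43653 probes of the array. A probe entered the fits if its signal stood well above background on 8 or more of the 20 arrays. That left 17 member probes, and each of the 8 genes kept at least 1 of them among the 19420 genes fitted.

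The samples were endometrial biopsies of 10 cows, each sampled early (days 42 to 86 after calving, mean 60.1 ± 13.3, SD, n = 10) and late (days 343 to 436, mean 388.9 ± 27.5, SD, n = 10). By the design text every biopsy was taken 7 days after oestrus with forceps, from the horn beside the corpus luteum, and no treatment or genotype is named for either group. The labels give no age or breed, and the late biopsy always followed the early one, so interval after calving cannot be told apart from age or sampling order. Total RNA of each biopsy was labelled with Cy3 and hybridised to 1 array. Titles and animal numbers pair the samples as cows 1 to 10, whereas another label field numbers the late animals differently, and the labels do not settle this.

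Levels are log2 signals relative to the 75th percentile of each array, so a level of 0 equals that percentile and a difference of 1 is a doubling. Of 43803 noncontrol spots per array, 71.8% to 80.2% had a signal well above background and none was saturated. The number of arrays limits the precision. Slides 1 and 2 held only early arrays and slides 4 and 5 only late ones, while slide 3 carried early arrays (cows 9 and 10) and late arrays (cows 1 and 2). The early array of cow 4 correlated at 0.949 with the mean of the other early arrays and that of cow 9 at 0.97, against 0.982 to 0.992 for the other 18 arrays and their own periods. The early array of cow 4 had the highest level of OXTR, the oxytocin receptor (4.29), and the early array of cow 9 the lowest level of the epithelial adhesion molecule EPCAM (2.40). Of 8 endometrial markers 7 were measured, the steroid receptors PGR and ESR1 among them. HAND2, a stromal transcription factor, passed the threshold of the fit across genes (-0.87 ± 0.18, SE, adjusted p = 0.0455 in limma, past it in 1 of 10 fits that left out 1 cow and not in a fit with the slide as a random effect, adjusted p = 0.078), and the other 6 did not. In a biopsy of mixed tissue, fewer cells of a type and less RNA per cell cannot be told apart.

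Adenosine outside cells is made from released ATP and ADP: ENTPD1 (CD39) takes the nucleotides down to AMP, and NT5E (CD73) cleaves AMP to adenosine. The nucleoside then acts on G protein-coupled receptors, of which ADORA1 and ADORA3 couple to inhibitory G proteins and lower cAMP, while ADORA2A and ADORA2B couple to stimulatory G proteins and raise it. ADA ends the signal by converting adenosine to inosine. In mammals ADORA3 is found on myeloid cells and mast cells, ADORA2A on many leukocytes and vessels, ADORA2B widely at low affinity, and NT5E and ENTPD1 on lymphocytes, endothelium and stromal cells. TMIGD3 encodes a membrane protein with an immunoglobulin domain, and its gene spans that of ADORA3.

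The probe sequences are shown for the genes whose identity the results turn on. The array's design calls both ADORA3 probes and the TMIGD3 probe ADORA3, and only the present RefSeq assignment (ARS-UCD2.0 assembly) gives the last of them to TMIGD3. In that assembly the ADORA3 gene is 3875 bases long and lies within the 83411 bases of TMIGD3. On the build of the array's own annotation, HGSC Btau_3.1, the 3 probes lie on the plus strand of chromosome 3. ADORA3 probe 1 (chr3:34390480-34390539) begins at base 1611 of its transcript, ADORA3 probe 2 (chr3:34387204-34387263) at base 495, and the TMIGD3 probe (chr3:34405301-34405360) at base 909. Probe 1 starts 3217 bases past the last base of probe 2, and the TMIGD3 probe 14762 bases past the last base of probe 1. Probe 2 is printed whole, and of the others the first 30 of 60 bases are printed. No exon or UTR annotation of this build was used here.
ADORA3 probe 2: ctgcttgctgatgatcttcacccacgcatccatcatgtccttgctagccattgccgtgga
ADORA3 probe 1, start: ctgaattacgtttaaggggaacttaacttt
TMIGD3 probe, start: aggcgatggctcatactgaacagatggggc

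Receptor genes are related, so the probes of all members were also compared with each other. The longest run shared between probes of different members was 13 bases, between ADORA1 probe 2 (base 1021 of its transcript, not placed on the genome by the array's annotation) and ADORA2A probe 2 (base 486, chr17:74826428-74826487, minus strand). It is set in capitals.
ADORA1 probe 2: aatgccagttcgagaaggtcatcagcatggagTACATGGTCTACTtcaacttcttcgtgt
ADORA2A probe 2: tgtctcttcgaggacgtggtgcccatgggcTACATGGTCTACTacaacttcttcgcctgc
All other pairs of probes from different members shared at most 8 bases. This holds for the ADORA3 probes against the TMIGD3 probe too.

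ADORA3, the A3 receptor, was lower late. On probe 1, which represents the gene, early levels ran from -1.13 to 0.86 with a median of -0.47, and late levels from -2.28 to -0.57 with a median of -1.67. The ranges of the periods overlapped, but within every cow the late level was below the early one. Cow 9 had the highest early level, cow 3 the highest late level and cow 10 the lowest late level. The change was -1.14 ± 0.43 on the log2 scale (SD over 10 cows), a 2.20-fold lower signal, and single cows ranged from -0.57 (cow 8) to -1.84 (cow 7). Among all genes measured in every cow, 1.71% were lower late in 10 of 10 cows. Probe 2 gave a change of -0.93 ± 0.25 (SD, n = 10), from early levels of -5.23 to -3.48 (median -4.42) to late levels of -6.40 to -4.47 (median -5.35), and was likewise lower in 10 of 10 cows, as were 2.28% of all probes. After the period means were removed, the levels of the ADORA3 probes correlated at 0.86 over the 20 arrays.

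TMIGD3 was lower late to a similar extent. Early levels of its probe ran from -5.14 to -2.93 (median -4.55) and late levels from -6.35 to -4.46 (median -5.69). The ranges overlapped, with cows 9 and 3 at the top of each period. The change was -1.20 ± 0.46 (SD, n = 10), a 2.30-fold lower signal, and 10 of 10 cows were lower late. With normexp background correction the TMIGD3 change was -0.56. Its levels correlated with ADORA3 probe 1 at 0.88 and with probe 2 at 0.82 over the 20 arrays, period means removed. Which of the overlapping transcripts each probe reads was not tested.

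**Figure D1:**
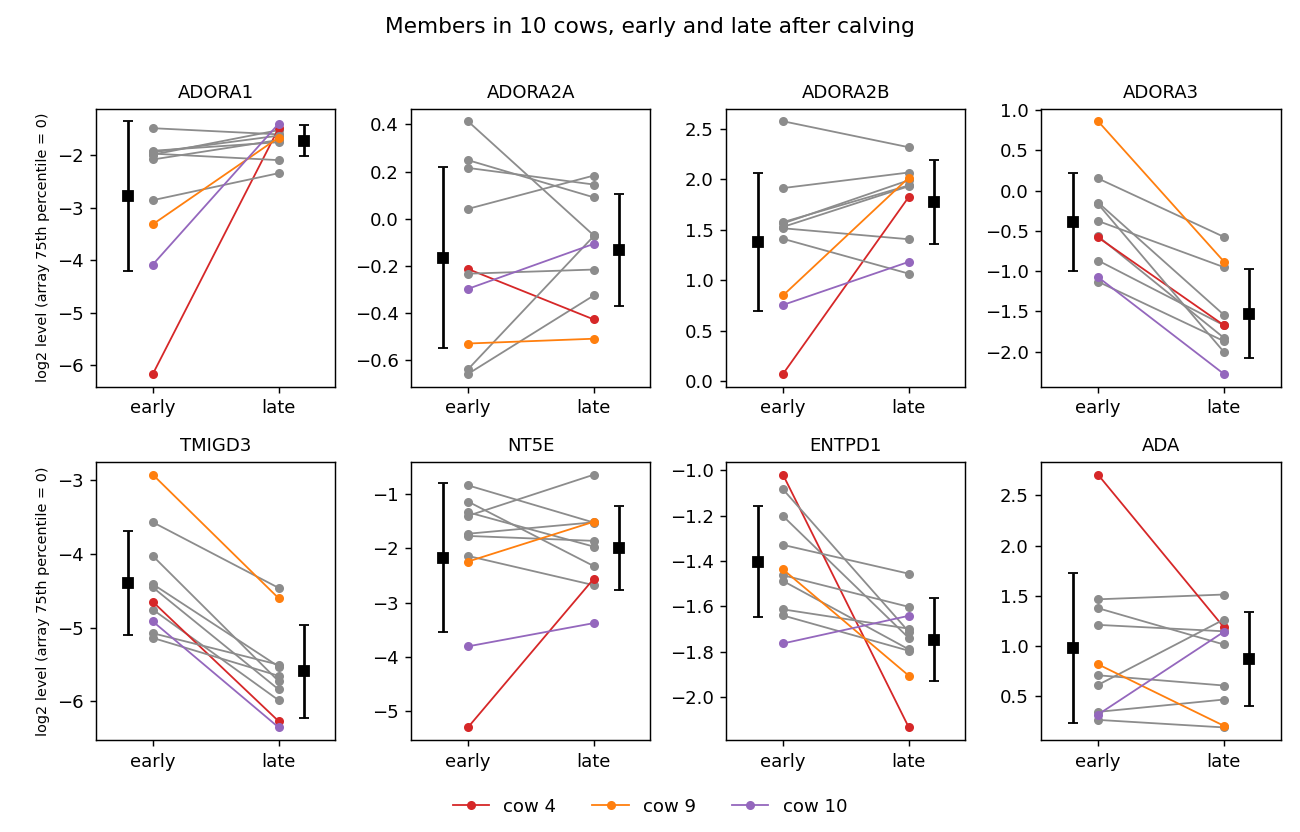
Log2 levels of the 8 members in 10 cows, early and late after calving. Each line is a cow, with cows 4, 9 and 10 in colour, and black squares with bars are means ± SD over 10 cows. Every ADORA3 and TMIGD3 line runs downward, the steepest upward lines of ADORA1 are those of cows 4, 10 and 9, and the vertical axes differ between genes.

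ADORA3 and TMIGD3 were the 2 of 8 members past an adjusted p of 0.05 in the fit across all genes (limma, paired by cow), where 1.32% of 19420 genes passed and 0.778% passed as lower late. Because the members were picked with this contrast known, that count supports nothing. Leaving out any 1 cow lowered the number of genes past the threshold from 256 to between 35 and 159. Without cows 4 and 9 the changes were -1.07 for ADORA3 and -1.09 for TMIGD3. On slide 3 alone, which holds 2 arrays of each period, late minus early was -1.64 for ADORA3 and -1.99 for TMIGD3. That contrast is unpaired, as its early arrays (cows 9 and 10) and late arrays (cows 1 and 2) are of different cows. ADORA3 was at 0.86 and -1.07 early against -1.83 and -1.67 late, and TMIGD3 at -2.93 and -4.92 against -5.84 and -5.98. The size of both differences leans on the early array of cow 9. The early array of cow 10 lay nearer the late levels, though above them. With slide as a fixed block the estimates were -1.46 (SE 0.73) and -1.94 (SE 0.71), and 0 of 19416 genes passed the threshold in limma, with 366 at an unadjusted p under 0.05. With the same block the signs of ADORA1 (-0.23), ADORA2B (-0.09), NT5E (-0.46), ENTPD1 (0.69) and ADA (1.28) turned, with standard errors of 0.50 to 1.97. With slide as a random block the changes were -1.14 for ADORA3 and -1.21 for TMIGD3, and 35 genes passed. Only the 4 arrays of slide 3 separate slide from period.

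The genes beside ADORA3 did not all move with it. Of the 5 named genes on each side of the locus, 8 were measured, and 0 passed the threshold in limma (2 at an unadjusted p under 0.05). C3H1orf162, the nearest gene after the locus, changed by -1.10 ± 0.25 (SE, adjusted p = 0.0551 in limma), and CTTNBP2NL, which encodes a cortactin-binding protein relative, by -0.67 ± 0.16 (SE, adjusted p = 0.066). The other 6 lay between -0.21 and 0.20. These were WDR77 (-0.21), INKA2 (-0.08), the Ras-family GTPase RAP1A (0.06), the RNA helicase DDX20 (0.07), the ATP synthase subunit ATP5PB (0.09) and the oviductal glycoprotein OVGP1 (0.20). KCND3 and CIMAP3 were not well above background on enough arrays to enter.

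Across the 20 arrays, with period means removed, the genes whose levels followed ADORA3 most closely among 13000 named genes were NAAA (r = 0.89), MS4A7 (0.88), FOLR2 (0.85), VSIG4 (0.85) and IGSF6 (0.85). Those closest to TMIGD3 were MS4A7 (0.87), CD38 (0.87), LAPTM5 (0.87), NAAA (0.85) and PTAFR (0.84). FOLR2, a folate receptor, and VSIG4, a complement receptor, are markers of tissue macrophages, and LAPTM5 is a lysosomal protein of leukocytes. These correlations share the arrays, their scaling and 10 cows, and they carry no p. Without the early array of cow 9, highest in ADORA3, the correlation of ADORA3 with VSIG4 was 0.78 and that with NAAA 0.85 over 19 arrays. Its correlation with EPCAM moved from -0.57 to -0.27 when that array was left out.

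Some markers of macrophages and monocytes were lower late beside ADORA3 and TMIGD3. Of 15 such genes 14 were tested, 13 had a negative change and 4 passed the threshold in limma as lower late: VSIG4 (-1.47 ± 0.16, SE, adjusted p = 0.0041), the lysosomal glycoprotein CD68 (-1.79 ± 0.22, adjusted p = 0.0055), the scavenger receptor MSR1 (-0.85 ± 0.13, adjusted p = 0.0181) and the adaptor TYROBP (-1.07 ± 0.18, adjusted p = 0.0306). MSR1 missed the threshold without cow 1 (adjusted p = 0.0516), and TYROBP without cow 1, 6, 8 or 10 (adjusted p = 0.0512 to 0.0697) and in the random slide block fit (adjusted p = 0.0588). The other 10 did not pass, among them the mannose receptor MRC1 (-0.77), lysozyme, LYZ (-0.0013), and the haemoglobin scavenger receptor CD163 (0.12, but -1.02 on slide 3 alone). Of the 14 genes 12 had an unadjusted p under 0.05 in limma, as did 22.6% of all genes. The median change over the 14 was -0.73, against 0.02 over all genes. The summed level of the list ran from 4.39 to 6.27 early (median 5.37) and from 4.17 to 6.13 late (median 4.53). MARCO was not in the fit, as its signal was well above background on 1 array at most. With period means removed, 12 of the 14 markers correlated above 0.5 with ADORA3 and 12 with TMIGD3, as did 3.94% and 4.35% of all genes. These counts were not recomputed without the early array of cow 9. Without that array TMIGD3 correlated at 0.66 with VSIG4 (from 0.77) and at 0.63 with CD68 (from 0.74). ADORA3 correlated at 0.75 with CD68 (from 0.82). The part of macrophage number in the ADORA3 and TMIGD3 change was not tested.

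**Figure D2:**
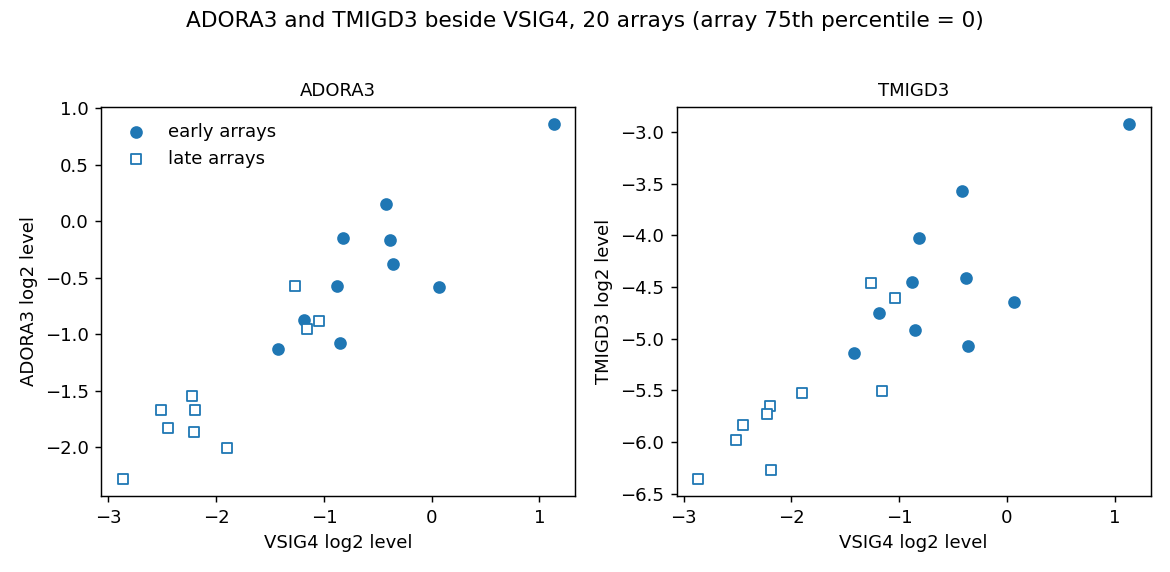
Log2 levels of ADORA3 (left) and TMIGD3 (right) against the macrophage marker VSIG4 on the 20 arrays, filled circles early and open squares late. The early array of cow 9 is at the top right (ADORA3 0.86, VSIG4 1.13), while that of cow 4, next highest in VSIG4 (0.07), lies at -0.58 in ADORA3 and -4.65 in TMIGD3.

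Mast cells also carry ADORA3 in several species. Of 7 mast cell genes tested 0 passed the threshold in limma (3 at an unadjusted p under 0.05), with a median change of -0.16. The change was negative for 6 of the 7, such as the IgE receptor subunit FCER1A (-0.91, lower in 10 of 10 cows), the tryptase TPSB2 (-0.60) and the histamine-making enzyme HDC (-0.54), and the signs of these 3 turned with slide as a fixed block (1.21, 0.18 and 0.53). The transcription factor GATA2 was at 0.33. The summed level of the list was 3.31 to 5.25 early (median 4.89) and 4.09 to 5.39 late (median 4.96), and it was mostly GATA2 signal (mean 4.57 early, 4.90 late). Of the 7 genes 1 (14.3%) correlated above 0.5 with ADORA3 and 0 with TMIGD3, against 3.94% and 4.35% of all genes. Of 5 dendritic cell genes tested, FCER1A again among them, all had a negative change (median -0.61). CD1E passed (-1.07 ± 0.22, SE, adjusted p = 0.0462), but did not without any 1 of the 10 cows (adjusted p = 0.0517 to 0.0936) or in the random slide block fit (adjusted p = 0.0802), and 4 of the 5 correlated above 0.5 with ADORA3. Of 8 epithelial genes tested 0 passed in limma (1 at an unadjusted p under 0.05), with a median change of 0.24, and 4 correlated below -0.5 with ADORA3. Without the early array of cow 9 the value was -0.27 for EPCAM (from -0.57) and -0.22 for the keratin KRT8 (from -0.51). The others of the 4 were not recomputed. Of 13 T and NK cell genes NKG7, a granule protein, passed (-1.20 ± 0.19, adjusted p = 0.0261), though not without cow 1, 6, 8 or 10 (adjusted p = 0.051 to 0.0697) or in the random slide block fit (adjusted p = 0.0519), and 3 of the 13 correlated above 0.5 with ADORA3. Of 6 neutrophil genes tested 2 had a negative change, and 2 correlated above 0.5 with ADORA3. The Fc receptor FCGR3A, which macrophages and NK cells carry too, passed in limma (-0.97 ± 0.13, SE, adjusted p = 0.0104). It also passed in 10 of 10 fits that left out 1 cow and in the random slide block fit (adjusted p = 0.0235). All 9 stromal genes (median -0.31) and all 7 endometrial genes (median -0.63) had a negative change, HAND2 in both lists being the 1 that passed, and 0 of the 9 and 1 of the 7 correlated above 0.5 with ADORA3. The lists for B and plasma cells, endothelium, eosinophils, smooth muscle and pericytes, and red blood cells held 28 tested genes, of which 0 passed in limma (4 at an unadjusted p under 0.05). The 1 eosinophil gene tested changed by -0.73 and correlated at 0.56 with ADORA3. In the other lists of these 28 genes 0 correlated above 0.5 with ADORA3. The part of these cell types in the member changes was not tested.

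ADORA1, the A1 receptor, varied most among the early arrays. On probe 1 early levels ran from -6.16 to -1.49 (median -2.04), and late levels from -2.35 to -1.41 (median -1.65). The early arrays of cows 4 (-6.16), 10 (-4.08) and 9 (-3.32) were the lowest of the 20, and the late arrays of the same cows lay between -1.67 and -1.41. The change was 1.06 ± 1.54 (SD, n = 10), higher late in 8 of 10 cows. It was 0.53 without cows 4 and 9 and 0.23 without cows 4, 9 and 10. Probe 2 showed the same 3 early arrays at the bottom (-8.0, -7.59 and -6.78), where its signal was not well above background, and a change of 0.68 ± 1.29 (SD). Probe 3, nearer the start of the transcript at base 551, had a narrower spread, with early levels of -4.10 to -3.51, late levels of -4.07 to -3.44 and a change of 0.14 ± 0.25 (SD). The levels of probe 1 correlated at 0.85 with those of probe 2 and at 0.46 with those of probe 3, period means removed. A probe at base 255 was not well above background on any array, and no fold is given for it. The genes closest to ADORA1 over the 20 arrays were SMOC1 (r = 0.96), CAPRIN2 (0.95) and SNTB2 (0.94). Of all genes 12.9% correlated above 0.5 with ADORA1. The SD of probe 1 was 1.42 early and 0.29 late, and r for these 3 genes was not computed without the low early arrays.

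ADORA2A, which raises cAMP, had nearly the same mean in both periods. Early levels of probe 1 ran from -0.66 to 0.41 (median -0.22) and late levels from -0.51 to 0.18 (median -0.09). The change was 0.03 ± 0.30 (SD, n = 10), higher in some cows and lower in others. Probe 2 gave -0.17 ± 0.60 (SD), with early levels of -4.83 to -2.67 and late levels of -5.08 to -3.67. The ADORA2A probes correlated at only 0.38 with each other, period means removed. WDR5 (r = 0.75), MFSD10 (0.69) and GSC (0.68) were closest to ADORA2A over the arrays.

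ADORA2B, the low-affinity receptor of the same coupling, had early levels of 0.07 to 2.57 (median 1.52) and late levels of 1.07 to 2.32 (median 1.94). The early array of cow 4 was the lowest and that of cow 3 the highest of the 20. The change was 0.40 ± 0.64 (SD, n = 10), and it was 0.13 without cows 4 and 9. Its closest genes were SLC25A29 (r = 0.92), BDH1 (0.90) and GCA (0.90), and 8.2% of all genes correlated above 0.5 with ADORA2B. The gene has 1 probe on the array, so no other probe stands beside these values.

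NT5E, the AMP-cleaving enzyme, had a wide spread between cows. On probe 1 early levels ran from -5.81 to -0.64 (median -1.36), and late levels from -3.65 to -0.85 (median -1.89). Cows 10 (-5.81) and 4 (-5.58) were the lowest early and were also the lowest late (-3.65 and -3.10). On probe 2, which represents the gene, the change was 0.17 ± 1.11 (SD, n = 10), with 5 cows lower and 5 higher late. The changes of probes 1, 3 and 4 were 0.26, -0.05 and 0.06. The 4 probes spanned 2690 bases of the transcript and correlated between 0.87 and 0.96, period means removed, so the low arrays were low on each of them. On probe 3 the signal of cows 4 and 10 was not well above background in either period. RAB26 (r = 0.87), BSP3 (0.86) and MGC138914 (0.83) followed NT5E most closely, and 7.14% of all genes correlated above 0.5 with it.

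**Figure D3:**
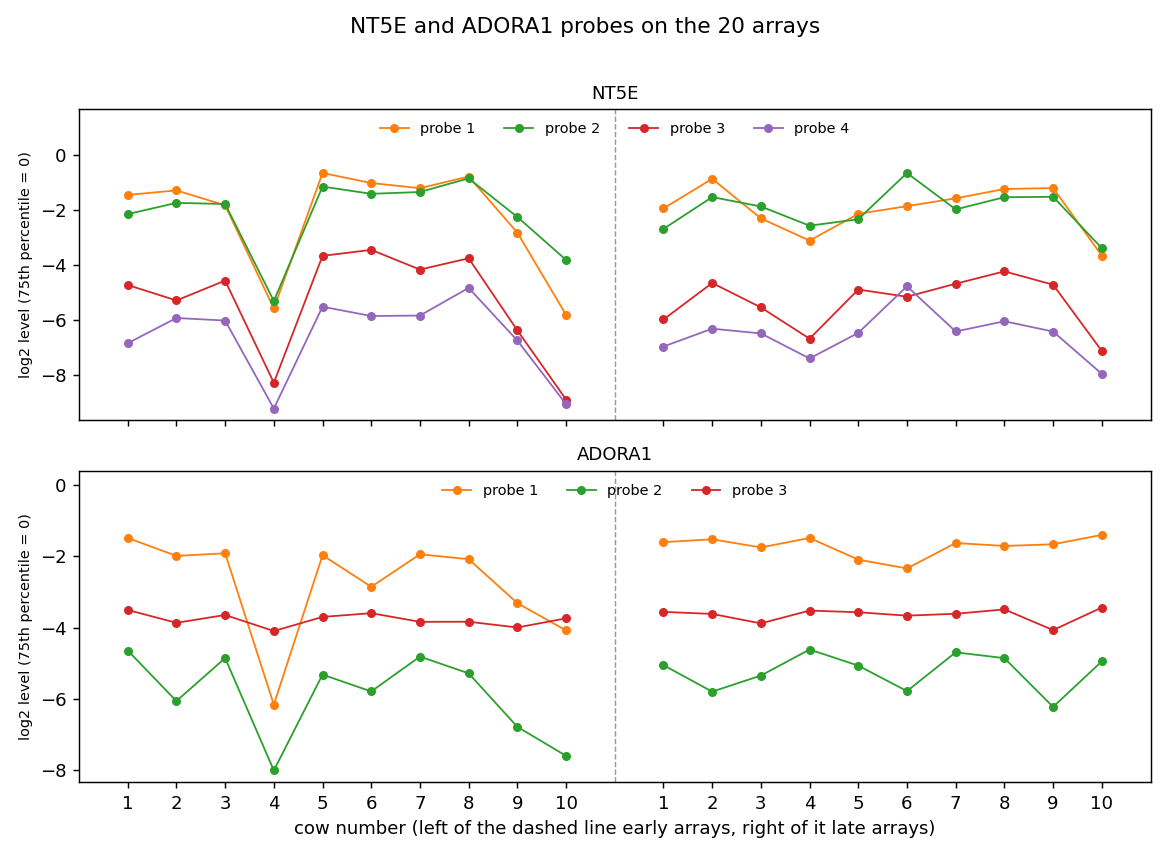
Log2 levels of the 4 NT5E probes (top) and the 3 measured ADORA1 probes (bottom) by cow, early arrays left and late arrays right of the dashed line. All 4 NT5E probes are lowest in cows 4 and 10 among the early arrays and in cow 10 among the late ones, and ADORA1 probes 1 and 2 dip on the early arrays of cows 4, 9 and 10 while probe 3 stays between -4.10 and -3.44.

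ENTPD1, the enzyme upstream of NT5E, had a small negative change. Early levels of probe 1 ran from -1.76 to -1.02 (median -1.45) and late levels from -2.13 to -1.46 (median -1.73). Late was below early in 9 of 10 cows, cow 10 being the other, and 6.04% of all genes were lower late in at least 9 of 10 cows. The change was -0.34 ± 0.36 (SD, n = 10), from -1.12 in cow 4 to 0.12 in cow 10, and -0.23 without cows 4 and 9. Probe 2 was lower in 10 of 10 cows, with a change of -0.47 ± 0.25 (SD), but its late signal was well above background on 6 of 10 arrays only. The levels of the ENTPD1 probes correlated at 0.20, period means removed, so they shared the direction of the change but not the order of the arrays. ITGB3 (r = 0.78), the platelet integrin subunit, TSPAN5 (0.75) and DAP3 (0.73) were closest to probe 1.

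ADA, which removes adenosine, had changes of both signs. Early levels of probe 1 ran from 0.27 to 2.71 (median 0.76) and late levels from 0.19 to 1.51 (median 1.08). The early array of cow 4 was 1.24 above the next early array. The change was -0.11 ± 0.65 (SD, n = 10), with 6 cows lower and 4 higher late, and 0.13 without cows 4 and 9. Probe 2 overlaps probe 1 by 49 of 60 bases, and the pair correlated at 0.998, so they are nearly the same measurement. The closest genes were GNB1L (r = 0.88), NCOA3 (0.85) and KRT83 (0.84), and 12.8% of all genes correlated above 0.5 with ADA.

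**Figure D4:**
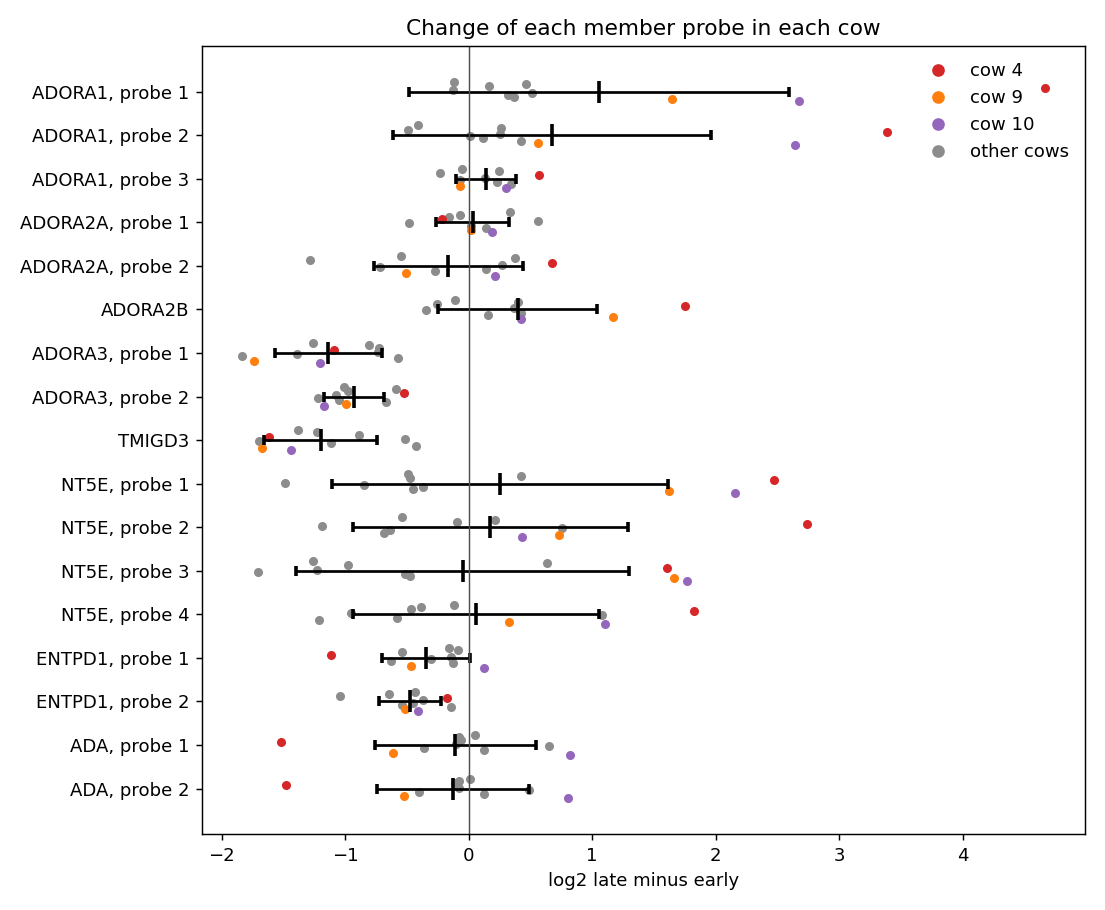
Late minus early in each of 10 cows for the 17 member probes in the fits, with black bars for the mean ± SD over cows. All points of both ADORA3 probes, of TMIGD3 and of ENTPD1 probe 2 lie below 0, and cows 4, 9 and 10 make up the right-hand points of ADORA1 probe 1.

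The days after calving within each period were not used to choose the members. In limma, 0 of the 8 members had a slope on days past the threshold in either period, with 0 of 8 at an unadjusted p under 0.05, and 0 of 19420 genes passed (1098 unadjusted early, 267 late). The early ADORA3 slope was -0.25 per 10 days (SE 0.12, adjusted p = 0.91), and the early TMIGD3 slope -0.28 (SE 0.14, adjusted p = 0.911). Without cow 9, sampled on day 48, these slopes were -0.16 and -0.17. The early ADORA1 slope was 0.54 per 10 days (SE 0.29, adjusted p = 0.911), and 0.31 without cow 4. Late slopes lay between -0.08 (ADORA2B) and 0.06 (ADA). The late slope minus the early slope was tested in limma as well, on the arrays of both periods together. That fit had no term for cow, so the early and late arrays of a cow were treated as independent. Of 19420 genes 1 passed the threshold, and no member did. The nearest member was ADORA1 (-0.55 per 10 days, SE 0.25, unadjusted p = 0.0389, adjusted p = 0.846).

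Whether a cow kept its rank from early to late was asked of each member over the 10 cows, with 100000-resample permutation p-values adjusted over 8 members. By Pearson's r, TMIGD3 (r = 0.77, adjusted permutation p = 0.0702) and ADORA3 (r = 0.72, adjusted permutation p = 0.0702) were highest, with Spearman's rho of 0.45 and 0.72. By rho, which uses ranks only, ADORA3 was highest. ADORA2B (rho 0.68, adjusted permutation p = 0.141), ADORA2A (0.62) and ADA (0.56) also stood above TMIGD3. Without the 2 cows farthest from the median early level, r was 0.68 for ADORA3 but 0.07 for TMIGD3, whose relation therefore rests on those cows. By r, ADORA2A followed at 0.64 (adjusted permutation p = 0.138). NT5E reached 0.59, ADA 0.50 and ADORA2B 0.40, while ENTPD1 (-0.38) and ADORA1 (-0.30) had negative values. Of the 8 members 0 passed after adjustment, and 2 had an unadjusted permutation p of r under 0.05.

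Pairs of members were compared within each period, 56 relations in all over 10 arrays each. Early, ADORA3 and TMIGD3 correlated at 0.92 (rho 0.88, adjusted permutation p = 0.0235) and ADORA1 and ADORA2B at 0.86 (rho 0.73, adjusted permutation p = 0.0266). These were the 2 pairs past the threshold, and 7 were at an unadjusted permutation p under 0.05. Late, ADORA3 and TMIGD3 correlated at 0.83 (adjusted permutation p = 0.0501), and ADORA1 and ADORA2B at 0.19 (adjusted permutation p = 0.97). Without the 2 arrays farthest from the median the early values were 0.77 for ADORA3 with TMIGD3 and 0.59 for ADORA1 with ADORA2B, and 0 of 56 pairs passed (8 unadjusted). Early NT5E correlated with ADORA1 at 0.90 (adjusted permutation p = 0.0501), a value that dropped to 0.19 without the 2 farthest arrays. Early NT5E and ADORA2B correlated at 0.80 (adjusted permutation p = 0.0506) and at 0.86 without them.

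The rest of the purine pathway was read from 101 listed genes that are not members, of which 94 were on the array and 84 tested. In limma 0 passed the threshold, and 18 had an unadjusted p under 0.05 (13 lower, 5 higher late), which is 21.4% of them against 22.6% of all genes. Of the 84 genes 52 had a negative change (61.9%, against 47.1% of all genes), and their median change was -0.06, against -0.04 for the members and 0.02 for all genes. The most negative change was that of P2RY1, an ADP receptor, at -1.49 ± 0.50 (SE, adjusted p = 0.124), lower late in 8 of 10 cows. It was -0.72 without cows 4 and 9, and 0.67 with slide as a fixed block.

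Among 10 genes of ATP release and nucleotide hydrolysis at the surface, CD38, which consumes NAD, stood nearest the threshold (-0.52 ± 0.14, SE, adjusted p = 0.0774), with ENTPD5 next (-0.63 ± 0.31, adjusted p = 0.245). The other nucleotidases had the only list median clearly above 0 (0.17 over 6 genes): NT5C3A, a cytosolic pyrimidine nucleotidase, was at 0.47 ± 0.10 (SE, adjusted p = 0.0519), higher late in 9 of 10 cows, and NT5C3B at 0.25 ± 0.10 (adjusted p = 0.173). Of 6 nucleoside transporters, which carry adenosine across membranes, SLC29A1 was at -0.44 ± 0.16 (SE, adjusted p = 0.137) and SLC29A4 at -0.32 ± 0.15 (adjusted p = 0.235). Of 21 genes of intracellular adenosine and purine metabolism, XDH, which makes uric acid, was at -0.42 ± 0.15 (SE, adjusted p = 0.141), and DPP4, a peptidase that binds ADA, at -0.72 ± 0.29 (adjusted p = 0.181). With slide as a fixed block the sign turned for NT5C3A (-0.11), SLC29A1 (0.64), SLC29A4 (0.41) and XDH (0.44).

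Of 11 P2 nucleotide receptors 9 had a negative change. P2RY13, another ADP receptor, was lower late in 10 of 10 cows (-0.71 ± 0.19, SE, adjusted p = 0.0778). Downstream of the receptors, 30 genes of G protein and cAMP signalling were tested, 21 with a negative change. The phosphodiesterase PDE3B was at -0.55 ± 0.16 (SE, adjusted p = 0.0963) and the adenylyl cyclase ADCY7 at 0.47 ± 0.15 (adjusted p = 0.11). Because the members were picked with this contrast known, the place of ADORA3 and TMIGD3 beside the 84 genes supports nothing.

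**Figure D5:**
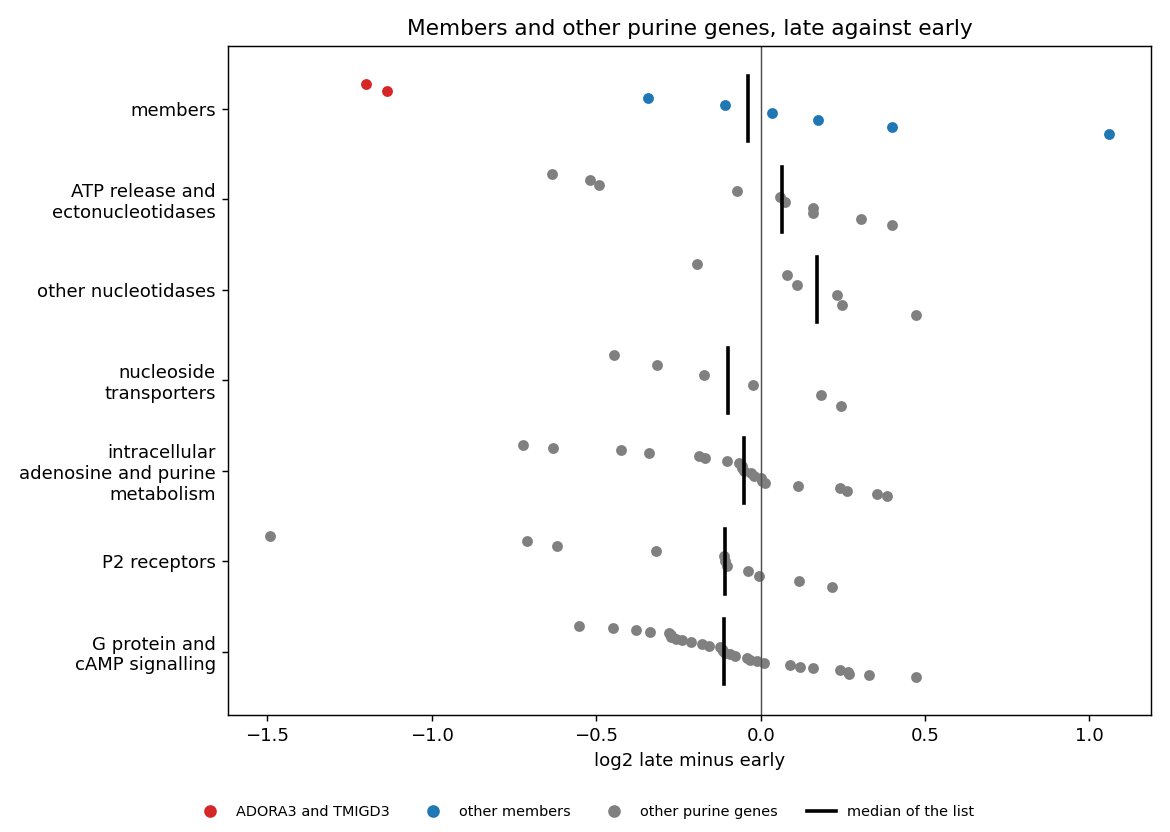
Fitted late minus early changes of the 8 members and of 84 other purine genes by list, with black bars for list medians. ADORA3 (-1.14) and TMIGD3 (-1.20), picked with this contrast known, are in red. P2RY1 (-1.49) is the most negative of the 84 other purine genes.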

How the data were processed

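The 20 samples were measured on Agilent 1-colour arrays, and, per the file headers, the deposited intensity values are the processed signals of Feature Extraction 10.5.1.1, background-subtracted and detrended within each array. The deposited log2 value table matched, after centring each probe, the log2 signals scaled here to the 75th percentile (correlation of at least 0.99997), so its scale and direction are known, and it served as an alternative only. Its column medians ran from -0.153 to 0.0509.

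Spots that were controls or flagged as outliers were dropped, and repeated spots averaged. Genes were named through a RefSeq table (ARS-UCD2.0), used for names and neighbours only, and the probe of highest mean represented a gene. The late against early fit used limma 3.58.1 under R 4.3.3 with cow as a fixed block, two-sided, and Benjamini-Hochberg adjustment over all genes at a threshold of 0.05. Day slopes were fitted per period. Correlations used permutation tests. The pairing comes from titles and animal numbers. The deviations of a cow's arrays correlated between -0.11 and 0.76 (median 0.42, above 0.1 in 8 of 10 cows), against a median of -0.03 between cows. The members, lists and alternatives were chosen with earlier results of these data known. By the rule for named genes, the text names all members and neighbours, the 2 genes of smallest p per purine list, and the 5 or 3 genes most like a member. The fits were checked on simulated data.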

Additional observations from a re-analysis of the deposited data

Results flagged for a closer look

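In 2 of the 34 groups of 10 arrays checked per probe, 1 array lay farther from its neighbour than Dixon's criterion allows, where chance gives about 1 in 20. Both were ADA probes, which overlap in sequence and so are 1 observation: the early array of cow 4 had levels of 2.71 on probe 1 and 2.52 on probe 2, which were 1.24 and 1.18 above the next early array. On the same array ADORA1 and ADORA2B had their lowest and OXTR its highest early level. Without cows 4 and 9 the ADA change was 0.13.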

How the results depend on the processing

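Of 627 values recomputed under other settings 568 were counted as the same, 52 moved, 5 lost and 2 gained the threshold, and 0 reversed a call. The 568 do not all share the sign of the main value. Counts near the main count were included. So were uncalled member changes whose sign turned with a shift below their SD over cows, such as ADORA1 with slide as a fixed block. ADORA3 lay between -1.64 and -1.03 and TMIGD3 between -1.99 and -0.56 over 25 alternatives. ADA kept its sign in 20 of 25, NT5E in 21, ADORA2A in 23, and ADORA1, ADORA2B and ENTPD1 in 24. Without the pairing (no replicate block) 119 genes passed and 1 member. With the replicate block as a random effect 724 genes, 3 members (3 too when probes were averaged per gene) and 1 other purine gene passed. These counts of members are no support, as the contrast chose them. The other purine gene was NT5C3A, called likewise with normexp, quantile normalization, median scaling, the filter on all 20 arrays and a trended and robust variance (1 gene each, adjusted p 0.0186 to 0.0484). With no filter 114 genes passed. With slide as a fixed block 0 genes and 0 members passed (366 genes and 1 member unadjusted), with slide 3 alone 0 and 0 (1722 and 3), and with slide as a random block 35 genes. Chosen after seeing the data, leaving out cows 4, 9 and 10 gave 103 genes. Leaving out 1 cow gave 35 to 159 genes, and 0 to 1 early day trends. Of the pairs of members 4 passed with quantile normalization, 5 with median scaling, 5 with the deposited table and 0 without the 2 farthest arrays. Of the same-cow relations 2 passed with median scaling. The causes were not tested. Signal over background limits some values: ADORA1 probe 2, NT5E probes 3 and 4 and ENTPD1 probe 2 were not well above background on every array.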
